A study of Homo sapiens with 48 samples.

Results

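The genes described here encode the histones that a cell makes when it copies its DNA. They were taken by name: every row of the deposited table whose gene name begins with HIST1H, HIST2H, HIST3H or HIST4H, without those whose name ends as a pseudogene's (PS or P and a number). The rule found 75 genes among the 57820 in the table. They comprise 6 H1, 17 H2A, 23 H2B, 14 H3 and 15 H4 genes. Of these, 59 had enough counts to be tested (5 H1, 16 H2A, 17 H2B, 9 H3 and 12 H4), among 19129 genes tested in all, and all counts and medians over the tested set leave out the other 16. Those 16 genes did not exceed 0.403 CPM (counts scaled to library size) in any library and held almost none of the histone counts. They were HIST1H1B, HIST1H2AA, HIST1H2BA, HIST1H2BB, HIST1H2BE, HIST1H2BH, HIST1H2BM, HIST1H3C, HIST1H3G, HIST1H3I, HIST1H3J, HIST1H4F, HIST1H4G, HIST1H4L, HIST3H2BA and HIST3H3. In the GENCODE 29 annotation, 5 of the genes kept by the name rule (HIST2H2BA, HIST2H2BB, HIST2H2BC, HIST2H2BD and HIST3H2BA) are listed as pseudogenes.

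The core histones H2A, H2B, H3 and H4 form the protein spool of the nucleosome, and the linker histone H1 binds the DNA between spools. Most histone mRNAs of dividing cells carry no poly(A) tail: they end shortly after a stem-loop that is bound by the protein SLBP, and they are made during S phase and degraded when DNA synthesis stops. UPF1, the RNA helicase best known for nonsense-mediated mRNA decay, is also recruited with SLBP to histone mRNAs when they are degraded. Because these libraries were depleted of ribosomal RNA rather than selected for poly(A), mRNAs without a tail were kept.

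RNA came from Flp-In 293 T-REx cells, a human embryonic kidney (HEK293) derivative in which a transgene sits at a fixed genomic site. The 8 stable lines were CLIP (the tag alone), WT (CLIP-tagged wild-type UPF1) and CLIP-UPF1 carrying K498A, DE636AA, R843C, A546H, GA-KH or E797R, of which K498A and DE636AA lie in the ATPase motifs of the helicase. Each line was reverse-transfected at 300000 cells with 40 nM non-targeting siRNA (siNT) or siRNA against endogenous UPF1 (siUPF1) and harvested after 72 h, with 3 libraries in each of the 16 groups. All lines were grown in Hygromycin B, and the promoter and any induction of the transgene are not given in the sources used here. The triplicates are labelled biological in the design text, which does not say how they were separated, so p-values measure the spread between these libraries.

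UPF1 was read first, as the check of the labels. In CLIP it stood at 105, 106 and 113 CPM with siNT and at 18.2, 36.8 and 17.7 CPM with siUPF1, a log2 fold change of -2.17 (SE 0.17, edgeR adjusted p = 4.83e-13). In the 7 transgenic lines the reads of transgene and endogenous gene are counted together, UPF1 lay between 3695 CPM (a R843C siUPF1 library) and 8235 CPM (a DE636AA siUPF1 library), and the knockdown of the endogenous gene cannot be read from it. CLIP siUPF1 replicate 2 stood apart: it had the highest UPF1 of its group, and mitochondrially encoded genes took 0.631% of its counts against a median of 2.33% over all libraries. A library held 21.3 to 47.1 M counts (median 32.3 M), and the histone genes held 0.411% to 0.646% of them (median 0.507%), which is 104878 to 256253 counts per library. Of the 6 HEK293 markers read, VIM (430.1 to 807 CPM), KRT8, KRT18 and NEFL were high, and PAX2 (2.42 to 8.89 CPM) and NEFM (0.842 to 2.75 CPM) were low. Of 7 markers of other cell types, PTPRC, CDH5, CD3E and ALB did not exceed 0.182 CPM in any library, while COL1A1 (1.02 to 4.67 CPM), COL3A1 (2.61 to 13.4 CPM) and EPCAM (64.9 to 100.2 CPM) were present in all.

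Most replication-dependent histone mRNAs are known to end in a hairpin, which the naming rule did not use. GENCODE 29 transcripts (GRCh38, not the build of the deposited counts) were matched by gene ID for 39 genes and by symbol for 36. They were searched for a letter pattern of the histone hairpin, with arms of 6 bases around a loop of 4. The search did not check that the arms pair base by base. This pattern was found in 35 of the 75 genes (46.7%) and in 67 of all 58676 genes (0.114%). Many models of the others end at the stop codon: 33 of the 75 genes have only coding models, so a hairpin not found says nothing of the mRNA. Nor do the annotated transcripts all end at the hairpin. For each gene only 1 transcript per distinct hairpin stretch was measured, so other models of a gene can end elsewhere. Of those measured, the shortest part after the hairpin was 60 bases or fewer in 12 of the 35 genes and over 300 bases in 17. Among the 17 are HIST1H2BG (1059 bases), HIST1H4E (1022) and HIST1H2BF (732) shown here, which have 1 annotated transcript each. The form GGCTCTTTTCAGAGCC was found in 18 of the 35 genes, and HIST1H3E was alone in carrying GGCTCTTCTCAGAGCC. In these member counts 1 transcript stands for both HIST2H2AA3 and HIST2H2AA4, because both were matched to the same GENCODE gene. The hairpins of 5 members described at length below are shown 5′ to 3′ with 5 bases on each side, with the hairpin in capitals.
HIST1H2AE: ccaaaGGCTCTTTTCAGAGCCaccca
HIST1H2BG: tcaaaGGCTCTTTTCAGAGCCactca
HIST1H2BF: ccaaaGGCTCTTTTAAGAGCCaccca
HIST1H4E: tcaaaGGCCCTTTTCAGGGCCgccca
HIST1H3E: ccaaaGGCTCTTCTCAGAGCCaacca

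Their promoters were taken from RefSeq on GRCh38.p14, as the 250 bases before each annotated start, and 64 of the 75 genes had one. The octamer ATTTGCAT, sought on both strands, was found in 1.68% of all 27305 promoters, in 11 of 16 H2A promoters and in 13 of 17 H2B promoters, but in no H1, H3 or H4 promoter. CCAAT was found in 32.7% of all promoters, in every H1, H2A, H2B and H3 promoter and in 3 of 13 H4 promoters, and TATAAA in 11.4% of all promoters and in 3 of 6 H1, 12 of 16 H2A, 11 of 17 H2B, 9 of 12 H3 and 7 of 13 H4 promoters. All motifs were sought on both strands, and several H2A and H2B promoters overlap, so a shared site is counted in both classes. Among such sites is the TTTATA of the HIST1H2AE promoter, which reads TATAAA in the HIST1H2BG promoter. A pair of promoters is shown because HIST1H2AE and HIST2H2AB were the members called higher in every line. The first lies at chr6:26216671-26216920 on the plus strand and the second at chr1:149887966-149888215 on the minus strand, and the capitals mark these 3 motifs on either strand, which do not overlap one another here.
HIST1H2AE: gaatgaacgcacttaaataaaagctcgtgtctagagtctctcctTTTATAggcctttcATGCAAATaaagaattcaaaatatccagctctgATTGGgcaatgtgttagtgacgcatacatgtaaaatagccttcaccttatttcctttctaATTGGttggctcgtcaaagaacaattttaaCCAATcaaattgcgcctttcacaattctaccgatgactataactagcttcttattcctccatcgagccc
HIST2H2AB: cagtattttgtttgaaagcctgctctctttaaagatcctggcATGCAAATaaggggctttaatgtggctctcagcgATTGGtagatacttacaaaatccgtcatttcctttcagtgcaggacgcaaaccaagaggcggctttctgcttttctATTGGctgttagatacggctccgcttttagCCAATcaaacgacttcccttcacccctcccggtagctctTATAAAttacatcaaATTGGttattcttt

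HIST1H2AE and HIST1H2BG stand head to head on opposite strands. Of the 250-base promoter of HIST1H2AE printed above, 232 bases (chr6:26216689-26216920) are also the promoter of HIST1H2BG. This layout is not particular to the pair: HIST1H2AC and HIST1H2BC, HIST1H2AM and HIST1H2BO, and HIST1H2AD and HIST1H2BF also have overlapping promoters on opposite strands. Of these genes, HIST1H2BF was called higher in 3 lines and the others were not called higher in any. Further pairs with this layout include HIST1H2AK and HIST1H2BN, HIST1H2AG and HIST1H2BJ, HIST1H2AI and HIST1H2BL, and HIST1H2AJ and HIST1H2BM. HIST2H2AC and HIST2H2BE, and HIST3H2A and HIST3H2BB, are others. In these further pairs HIST1H2AK and HIST1H2AJ were called higher in 2 lines each, and HIST1H2AG, HIST1H2AI, HIST1H2BL and HIST3H2BB in 1 each. HIST1H2BM was not tested, and the rest were not called higher. A link between the layout and the response was not tested.

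The 5 classes were far from equal in abundance. H1 genes held 33.2% of the histone counts, H2A 28.1%, H2B 20.1%, H3 12.0% and H4 6.64%. On the scale of CPM per kilobase of annotated transcript, averaged over the 48 libraries, the linker histone genes HIST1H1E (1215) and HIST1H1C (1100.2) were the highest levels of all. They were followed by the H2A gene HIST2H2AA3 (619), the H3 gene HIST1H3B (540.2), the H2B gene HIST1H2BK (425) and HIST2H2AA4 (355). The next in their classes were HIST1H2BC (258) and HIST1H3D (188), and the highest H4 genes were HIST2H4A (144) and HIST1H4C (120.2). HIST2H2AA3 and HIST2H2AA4 are near-identical copies, as are HIST2H4A and HIST2H4B and HIST2H3A and HIST2H3C, and a split of reads between them is uncertain. Lengths of coding-only models raise this measure for the genes that have no other.

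Summed over all members, histone mRNA was lower with siUPF1 in the lines A546H and R843C, without overlap between the groups, and the groups overlapped in the other 6 lines. These sums do not depend on how reads were divided among near-identical copies, and they are given without a test. In A546H the sum was 6486, 5099.6 and 6214 CPM with siNT and 4696, 4596 and 4474 CPM with siUPF1. The means were 5933 ± 735 and 4588 ± 111 CPM (SD, n = 3), 77.3% of siNT. In R843C it was 5600.1, 5480.3 and 4999.7 CPM with siNT and 4586, 4710.1 and 4456 CPM with siUPF1, with means of 5360.0 ± 318 and 4584 ± 127 CPM, 85.5% of siNT. Every siUPF1 library of these lines lay below every siNT library. Fewer cells in S phase and less histone mRNA per cell give the same drop in bulk libraries and cannot be told apart. A546H also had the highest siNT sum of the 8 lines, within the spread of the next: CLIP stood at 5473 ± 516, R843C at 5360.0 ± 318, K498A at 5308 ± 567 and E797R at 5147 ± 43.6 CPM. The lowest siNT sums were those of WT (4879 ± 608), DE636AA (4759 ± 659.7) and GA-KH (4587 ± 691).

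In CLIP, the line without rescue, the sum was 5921, 4909 and 5588 CPM with siNT and 4601, 5325 and 5406 CPM with siUPF1. The groups overlapped, and the siUPF1 mean was 93.4% of the siNT mean. In WT the sum was 5509, 4296 and 4833 CPM with siNT and 5458, 4570.1 and 6432 CPM with siUPF1, 112% of siNT, again with overlap. In K498A, DE636AA, GA-KH and E797R the siUPF1 mean was 97.1%, 97.8%, 95.0% and 103% of the siNT mean, and the groups overlapped in each.

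By class, H1, H2B, H3 and H4 mRNA in A546H were lower without overlap. H1 mRNA there was 2124, 1726 and 2198 CPM with siNT and 1461, 1444 and 1513 CPM with siUPF1, 73.0% of siNT. H3 was at 72.9%, H4 at 82.2%, H2B at 84.4% and H2A, whose groups overlapped, at 78.6% of siNT. The H4 groups nearly met: the lowest siNT library held 326.8 CPM and the highest siUPF1 library 324.8 CPM. Some members of different classes overlap on opposite strands, such as HIST2H4B and HIST2H3A. The strand setting is not given, so a class sum can depend on how such reads were assigned. In R843C the classes without overlap were H1 and H3. H1 was 1891, 1870.1 and 1820.0 CPM with siNT and 1410.1, 1428 and 1478 CPM with siUPF1, 77.3% of siNT, and H3 was at 82.6%. H4, the least abundant class, was at 113% of siNT in CLIP, 125% in WT and 116% in E797R, and its groups overlapped in all 3 lines.

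**Figure D1:**
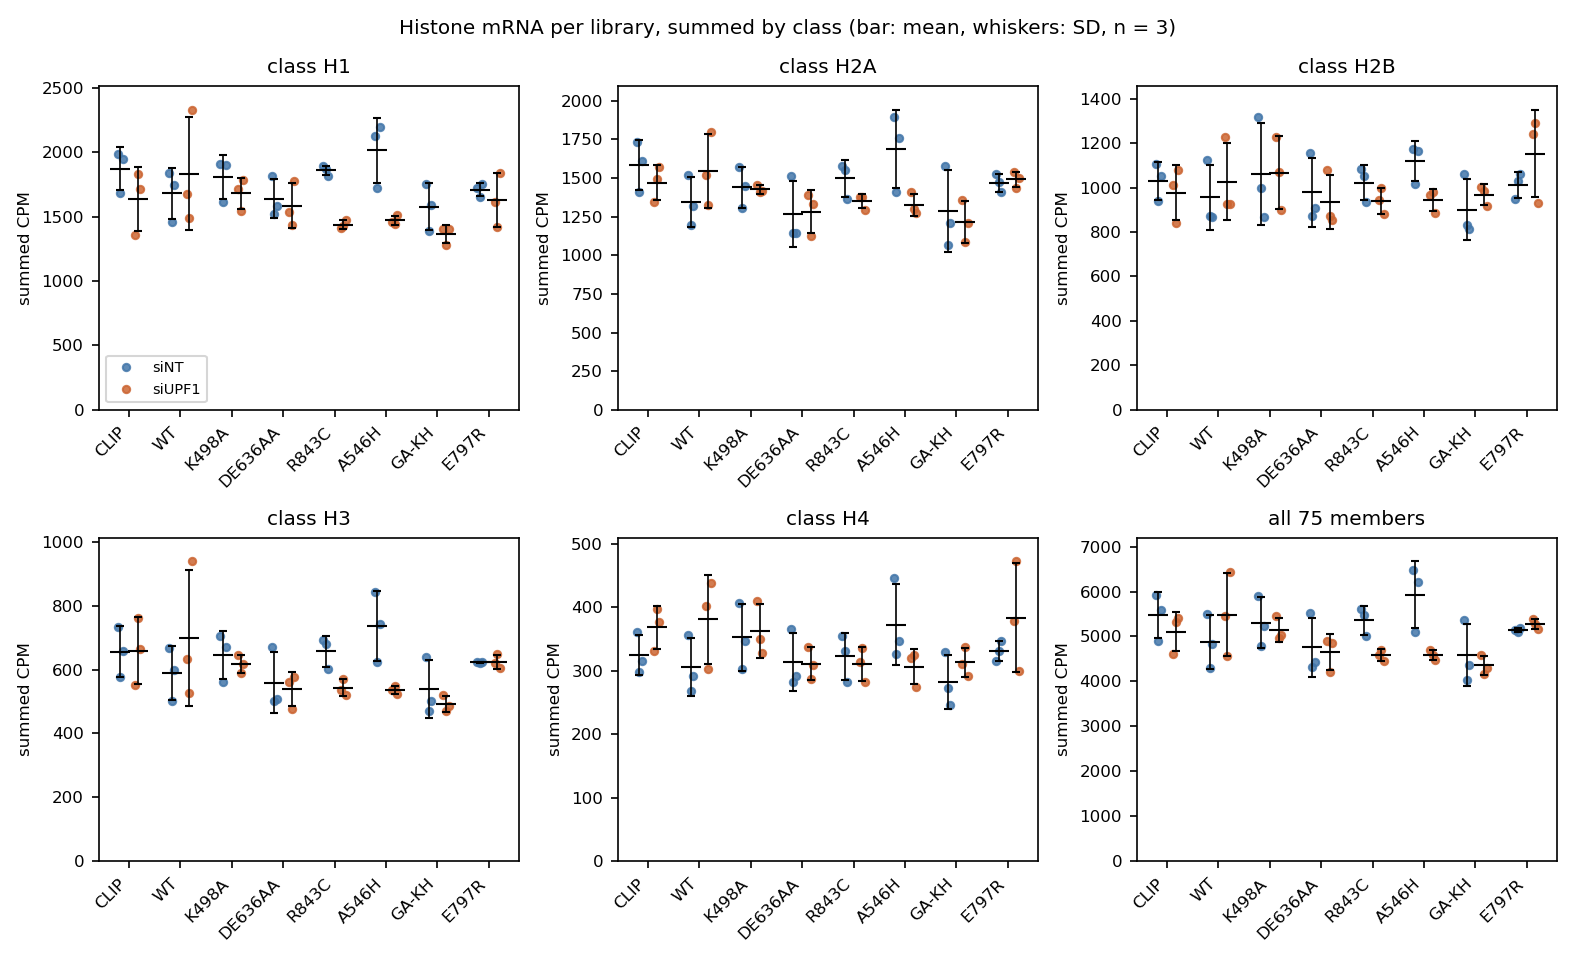
Summed CPM of each histone class and of all 75 members (vertical axes) in the 48 libraries, by line and siRNA; each point is a library, the bar is the mean and the whiskers are the SD (n = 3). With siUPF1 the all-member sum of A546H was 77.3% and that of R843C 85.5% of siNT, without overlap, and in the other 6 lines the groups overlap.

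Single members went both ways. Changes were tested with edgeR's quasi-likelihood test over all 19129 genes and a gene counted as called where its Benjamini-Hochberg adjusted p was below 0.05. In CLIP 6 of the 59 tested members were called higher and 7 lower (10.2% and 11.9%), against 25.1% and 22.3% of all genes tested, with a median log2 fold change of -0.03. Both shares lay below those over all genes, a difference that was not tested. In WT 11 were called higher (18.6% against 14% of all genes) and none lower (13.3% of all genes), with 1 lower at an unadjusted p under 0.05 and none by DESeq2, and the median was 0.12. In E797R 10 were called higher (16.9% against 16%) and none lower (13.5% of all genes), with none lower at an unadjusted p under 0.05 by edgeR and none by DESeq2, and the median was 0.15. K498A had 5 higher and 2 lower (16.2% and 16.5% of all genes, median 0.02), DE636AA 5 and 4 (16.7% and 17.6%, median -0.01), and GA-KH 6 and 1 (14.5% and 13.8%, median 0.06).

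A546H had the most members called lower, followed by CLIP and R843C. In A546H 18 members were called lower and 2 higher, 30.5% and 3.39%, against 15% and 17.2% of all genes, with a median of -0.32. The 18 comprised 8 H2A, 4 H3, 3 H1, 2 H2B genes and 1 H4 gene. In R843C 6 were lower and 4 higher (20 and 7 in a fit to the R843C libraries alone), against 14.8% and 17.7% of all genes, with a median of -0.17. The median over all genes tested lay between -0.02 and 0.02 in the 8 lines. Of the 59 members, 37 were called in at least 1 line and 22 in none, and none was called higher in 1 line and lower in another, nor was any by DESeq2. With no filter on low counts 7 members were called both ways, and in a fit to the compared libraries alone 1 was. How many of all genes tested were called in at least 1 line, or both ways, was not counted, so these member counts have no background.

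Several of these counts rest on single libraries. Without WT siNT replicate 3 or WT siUPF1 replicate 1 the 11 higher in WT became 3, without WT siNT replicate 2 or WT siUPF1 replicate 3 they became 7, and without WT siNT replicate 1 or WT siUPF1 replicate 2 they became 17. The 18 lower in A546H became 8 without siNT replicate 1 and 11 without siUPF1 replicate 2 or 3, the 2 higher there became 1 without siNT replicate 2, and the 7 lower in CLIP became 3 without siNT replicate 1 and 4 without siNT replicate 3 or siUPF1 replicate 1. The 10 higher in E797R became 6 without siUPF1 replicate 2. In K498A the 5 higher became 3 without siNT replicate 2, and the 2 lower became 0 without siNT replicate 1 and 1 without siUPF1 replicate 2. The 5 higher in DE636AA became 8 without siNT replicate 1 and 3 without siNT replicate 2, siNT replicate 3 or siUPF1 replicate 1. The 1 lower in GA-KH became 2 without siNT replicate 2 or siUPF1 replicate 1 and 0 without any of the other 4 libraries. In a fit to the compared libraries alone the calls of HIST1H2AB, HIST1H2AH, HIST1H3E and HIST1H4E in CLIP and of HIST1H2BG in WT were lost, as were those of HIST1H3E in R843C and GA-KH with no filter on low counts.

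**Figure D2:**
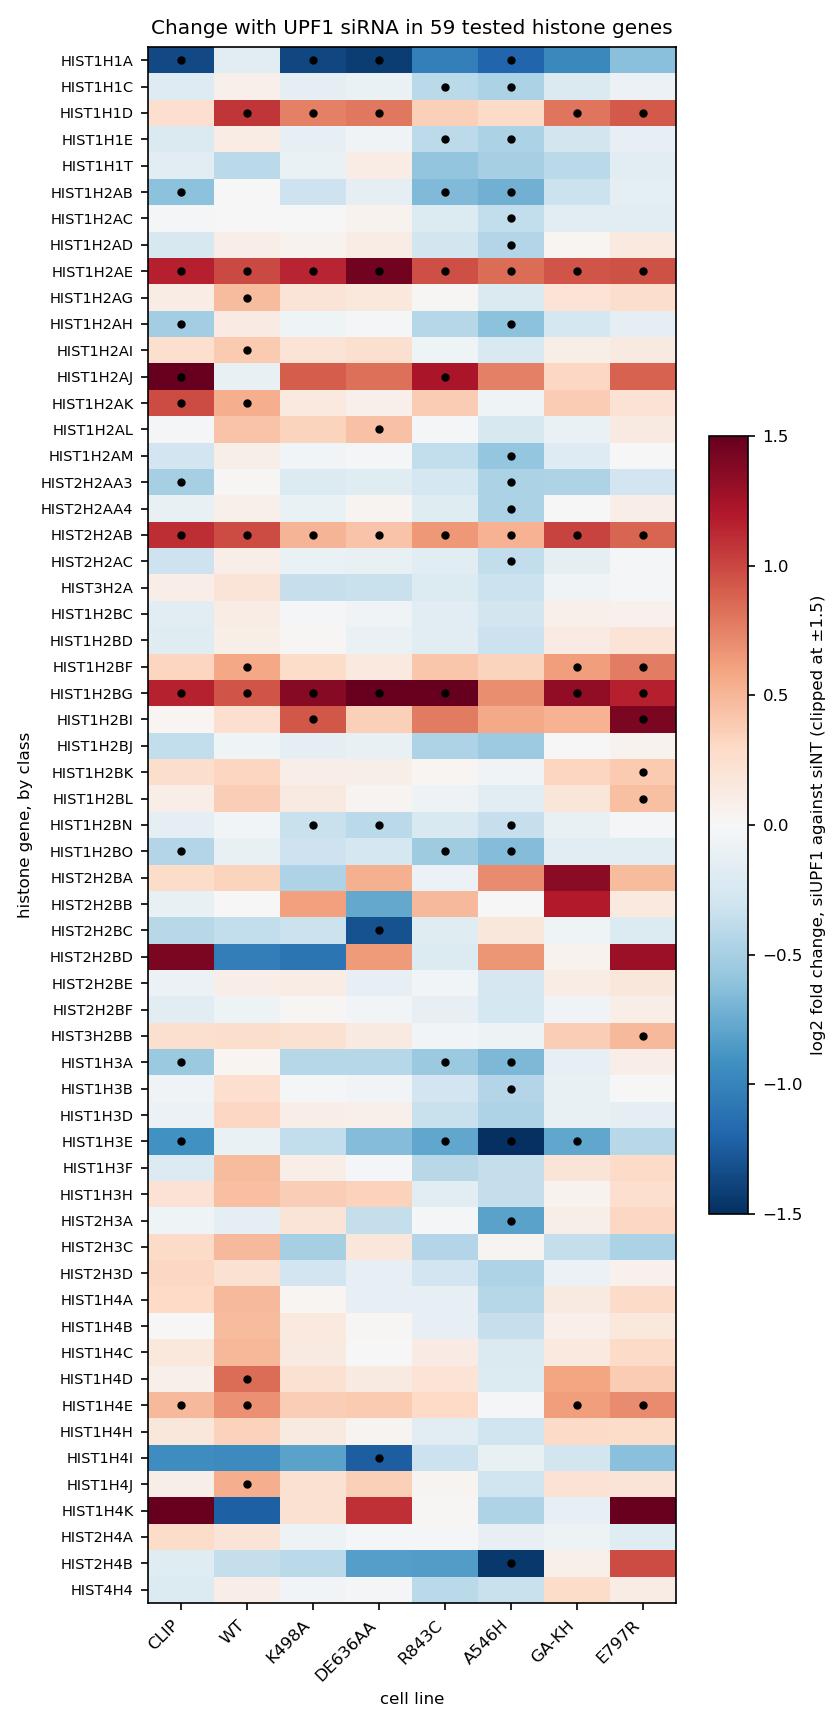
Log2 fold change of siUPF1 against siNT (colour, limited to ±1.5) for the 59 tested histone genes (rows, by class) in the 8 lines (columns); dots mark calls (edgeR, adjusted p below 0.05). HIST1H2AE and HIST2H2AB are called higher in all 8 lines, HIST1H2BG in 7, and the column of A546H holds 18 calls lower.

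HIST1H2AE, an H2A gene of the chromosome 6 cluster (now named H2AC8), rose in every line, to between 178% and 272% of siNT. In CLIP it was 20.4, 16.5 and 19.1 CPM with siNT and 38.8, 50.9 and 35.6 CPM with siUPF1, a log2 fold change of 1.16 (SE 0.17, edgeR adjusted p = 3.17e-07). In WT it was 18.8, 14.1 and 15.3 CPM with siNT and 35.3, 30.7 and 29.8 CPM with siUPF1, a change of 0.99 (SE 0.17, edgeR adjusted p = 1.66e-05). In both lines all siUPF1 libraries lay above all siNT libraries. In DE636AA, where the change was the largest of the 8, it was 18.5, 11.01 and 12.0 CPM with siNT and 41.6, 33.6 and 38.3 CPM with siUPF1, a change of 1.44 (SE 0.17, edgeR adjusted p = 1.23e-08). In A546H, where it was the smallest and 18 other members fell, it was 24.1, 18.9 and 21.4 CPM with siNT and 43.1, 38.9 and 32.7 CPM with siUPF1, a change of 0.83 (SE 0.17, edgeR adjusted p = 1.30e-04). The groups did not overlap in any of the 8 lines. In K498A it was 19.96, 18.4 and 17.8 CPM with siNT and 45.7, 43.9 and 34.9 CPM with siUPF1. In R843C it was 19.6, 19.8 and 15.1 CPM with siNT and 36.9, 39.2 and 30.9 CPM with siUPF1. The changes were 1.15 and 0.97 (SE 0.17 and 0.17). In GA-KH it was 24.3, 15.7 and 14.6 CPM with siNT and 36.0, 36.1 and 32.7 CPM with siUPF1. In E797R it was 20.8, 23.3 and 20.1 CPM with siNT and 43.9, 39.9 and 40.6 CPM with siUPF1. Here the changes were 0.95 and 0.95 (SE 0.17 and 0.17), and no call of this gene was lost under any alternative or with any single library left out.

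HIST1H2BG, the H2B gene that shares its promoter with HIST1H2AE, was called higher in 7 lines at far lower levels. Its CLIP libraries held 0.937, 0.963 and 0.812 CPM with siNT and 2.07, 2.31 and 1.71 CPM with siUPF1, a log2 fold change of 1.15 (SE 0.29, edgeR adjusted p = 9.81e-04). In DE636AA it was 1.01, 0.545 and 0.413 CPM with siNT and 2.60, 2.50 and 1.84 CPM with siUPF1, a change of 1.78 (SE 0.29, edgeR adjusted p = 6.15e-06). In A546H it was 1.083, 1.18 and 1.31 CPM with siNT and 1.92, 2.15 and 1.73 CPM with siUPF1, a change of 0.69 (SE 0.28, edgeR adjusted p = 0.0541), which missed the threshold although the groups did not overlap. The changes called in WT, K498A, R843C, GA-KH and E797R were 0.95, 1.37, 1.51, 1.33 and 1.17. Its call in WT was lost without siNT replicate 3 (0.62 with edgeR adjusted p = 0.157) or siUPF1 replicate 1 (0.83 with edgeR adjusted p = 0.0793).

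HIST2H2AB, an H2A gene of the chromosome 1 cluster, was the other member called higher in all 8 lines. Its CLIP libraries held 45.6, 36.2 and 43.7 CPM with siNT and 78.9, 107 and 83.7 CPM with siUPF1, a log2 fold change of 1.10 (SE 0.14, edgeR adjusted p = 3.59e-08). In WT it was 43.0, 34.0 and 39.0 CPM with siNT and 76.4, 60.2 and 92.2 CPM with siUPF1, a change of 0.98 (SE 0.14, edgeR adjusted p = 1.25e-06). In GA-KH it was 36.8, 27.6 and 29.8 CPM with siNT and 70.3, 58.2 and 61.3 CPM with siUPF1, a change of 1.01 (SE 0.14, edgeR adjusted p = 6.38e-07). These 3 lines and E797R (0.88) had the larger changes. In K498A it was 54.4, 36.3 and 46.4 CPM with siNT and 72.0, 61.5 and 62.5 CPM with siUPF1, a change of 0.52 (SE 0.14, edgeR adjusted p = 0.00407), and in DE636AA it was 41.7, 37.7 and 37.6 CPM with siNT and 56.1, 50.4 and 51.4 CPM with siUPF1, a change of 0.43 (SE 0.14, edgeR adjusted p = 0.0156). The changes in R843C and A546H were 0.65 and 0.52, and the groups did not overlap in any line. The smaller calls rest on single libraries: without K498A siNT replicate 2 the change was 0.36 with edgeR adjusted p = 0.0749, and without A546H siNT replicate 2 it was 0.39 with edgeR adjusted p = 0.0546. Without DE636AA siNT replicate 2, siNT replicate 3 or siUPF1 replicate 1 it was 0.41 with edgeR adjusted p = 0.0534, 0.41 with edgeR adjusted p = 0.0568, and 0.38 with edgeR adjusted p = 0.0723. The gene overlaps BOLA1 on the opposite strand, and the strand setting of the counting is not given in the sources used here. BOLA1 itself was called in none of the 8 lines, with log2 fold changes between -0.35 and 0.08.

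HIST1H1D was the linker histone gene called higher, in 5 of the 8 lines. It was called higher in 6 with no filter on low counts and in 6 in a fit to the compared libraries alone. Its groups did not overlap in 6 lines, R843C among them. In WT it was 39.0, 33.0 and 34.5 CPM with siNT and 69.1, 62.0 and 93.7 CPM with siUPF1, a log2 fold change of 1.07 (SE 0.17, edgeR adjusted p = 5.30e-06). In E797R it was 44.8, 49.7 and 38.0 CPM with siNT and 82.4, 89.7 and 77.6 CPM with siUPF1, a change of 0.91 (SE 0.17, edgeR adjusted p = 4.56e-05). The groups did not overlap in either line. The changes in GA-KH, DE636AA and K498A were 0.81, 0.79 and 0.75 (SE 0.17 in each), all called. In CLIP it was 49.0, 41.1 and 44.6 CPM with siNT and 44.7, 63.7 and 52.3 CPM with siUPF1, a change of 0.26 (SE 0.17, edgeR adjusted p = 0.218), with overlap, and in R843C and A546H the changes were 0.36 and 0.29 and were not called. The much more abundant HIST1H1C and HIST1H1E were not called higher in any line, with log2 fold changes of at most 0.07 and 0.11.

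HIST1H4E, an H4 gene, was called higher in CLIP, WT, GA-KH and E797R, and HIST1H2BF, its H2B neighbour, in WT, GA-KH and E797R. In WT HIST1H4E was 31.1, 23.0 and 21.5 CPM with siNT and 47.5, 32.0 and 42.4 CPM with siUPF1, a log2 fold change of 0.69 (SE 0.20, edgeR adjusted p = 0.00910). In E797R HIST1H2BF was 26.0, 26.6 and 27.3 CPM with siNT and 51.7, 44.2 and 40.1 CPM with siUPF1, a change of 0.77 (SE 0.17, edgeR adjusted p = 4.81e-04). Neither pair of groups overlapped. The other called changes were 0.48, 0.62 and 0.70 for HIST1H4E in CLIP, GA-KH and E797R, and 0.58 and 0.62 for HIST1H2BF in WT and GA-KH. HIST1H2BF was called higher in 6 lines with no filter on low counts and in 5 in a fit to the compared libraries alone. Most of these calls rest on single libraries. For HIST1H4E in CLIP the change was 0.43 with edgeR adjusted p = 0.135 without siNT replicate 2, 0.42 with edgeR adjusted p = 0.149 without siNT replicate 3, 0.39 with edgeR adjusted p = 0.169 without siUPF1 replicate 2 and 0.50 with edgeR adjusted p = 0.0707 without siUPF1 replicate 3. In WT it was 0.59 with edgeR adjusted p = 0.0618 without siNT replicate 3 and 0.55 with edgeR adjusted p = 0.0767 without siUPF1 replicate 1. In GA-KH it was 0.48 with edgeR adjusted p = 0.127 without siNT replicate 3 and 0.48 with edgeR adjusted p = 0.124 without siUPF1 replicate 2, and in E797R 0.48 with edgeR adjusted p = 0.103 without siUPF1 replicate 2. For HIST1H2BF the change was 0.50 with edgeR adjusted p = 0.0561 without WT siNT replicate 3, 0.46 with edgeR adjusted p = 0.0673 without WT siUPF1 replicate 1 and 0.47 with edgeR adjusted p = 0.0602 without GA-KH siUPF1 replicate 1.

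**Figure D3:**
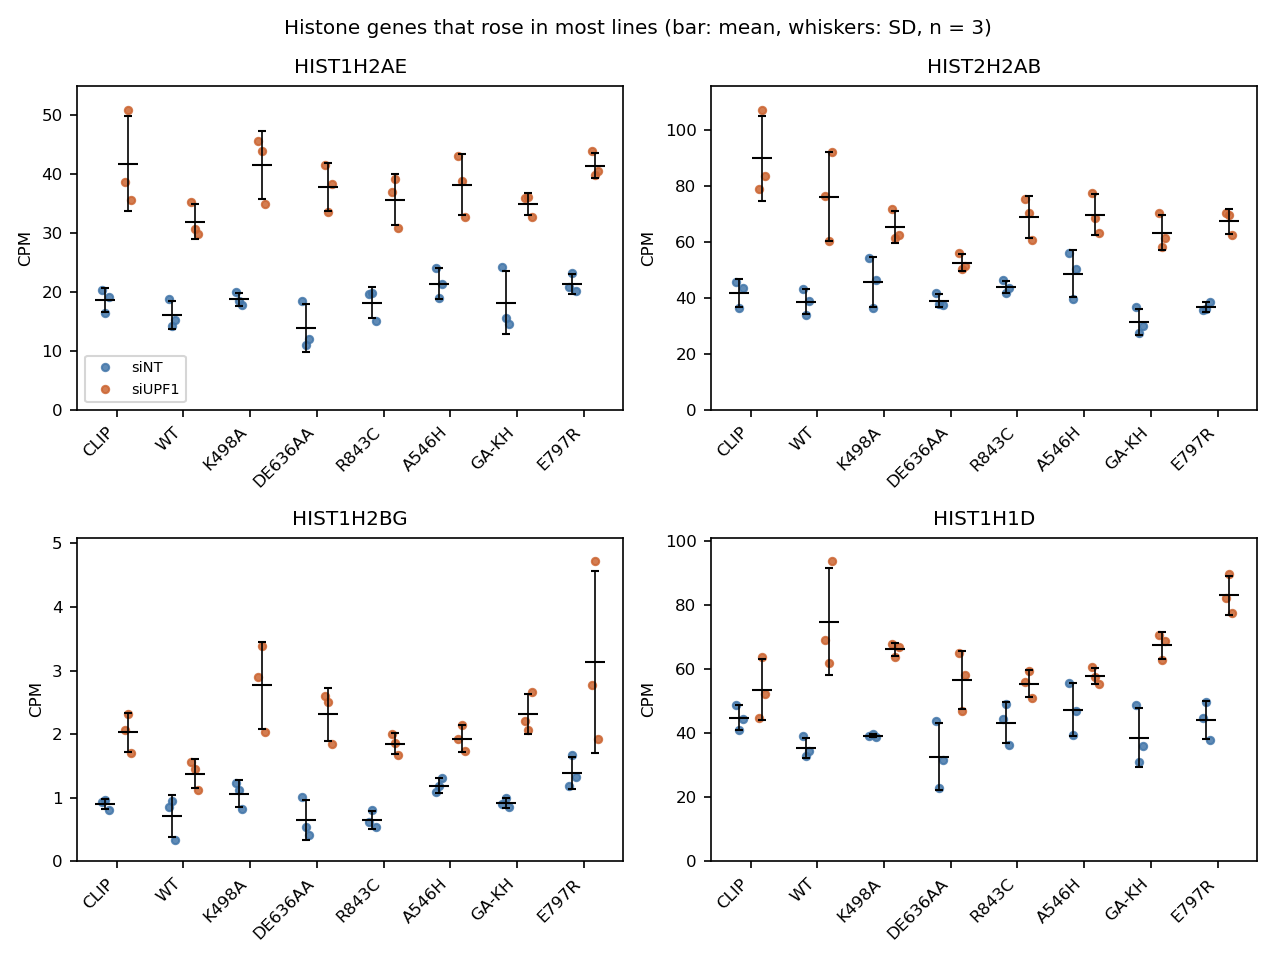
CPM of HIST1H2AE, HIST2H2AB, HIST1H2BG and HIST1H1D (vertical axes, each on its own scale) in the 8 lines with siNT and siUPF1; each point is a library, the bar is the mean and the whiskers are the SD (n = 3). The siUPF1 libraries of the first 3 genes lie above the siNT libraries in all 8 lines, and those of HIST1H1D overlap in CLIP and A546H.

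Of the 6 members called higher in 3 or more lines, all but HIST2H2AB lay close together on chromosome 6. In the gene order of GENCODE 29, counted over the members of that chromosome, HIST1H2BF is number 22, and HIST1H4E, HIST1H2BG, HIST1H2AE, HIST1H3E and HIST1H1D follow up to number 27. Of these 6 neighbours, 5 were called higher in 3 or more lines. The other, the H3 gene HIST1H3E, lies between HIST1H2AE and HIST1H1D and went the other way. This grouping was noticed after the values were seen and was not tested. How many of all genes tested were called higher in 3 or more lines, or in every line, was not counted.

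**Figure D4:**
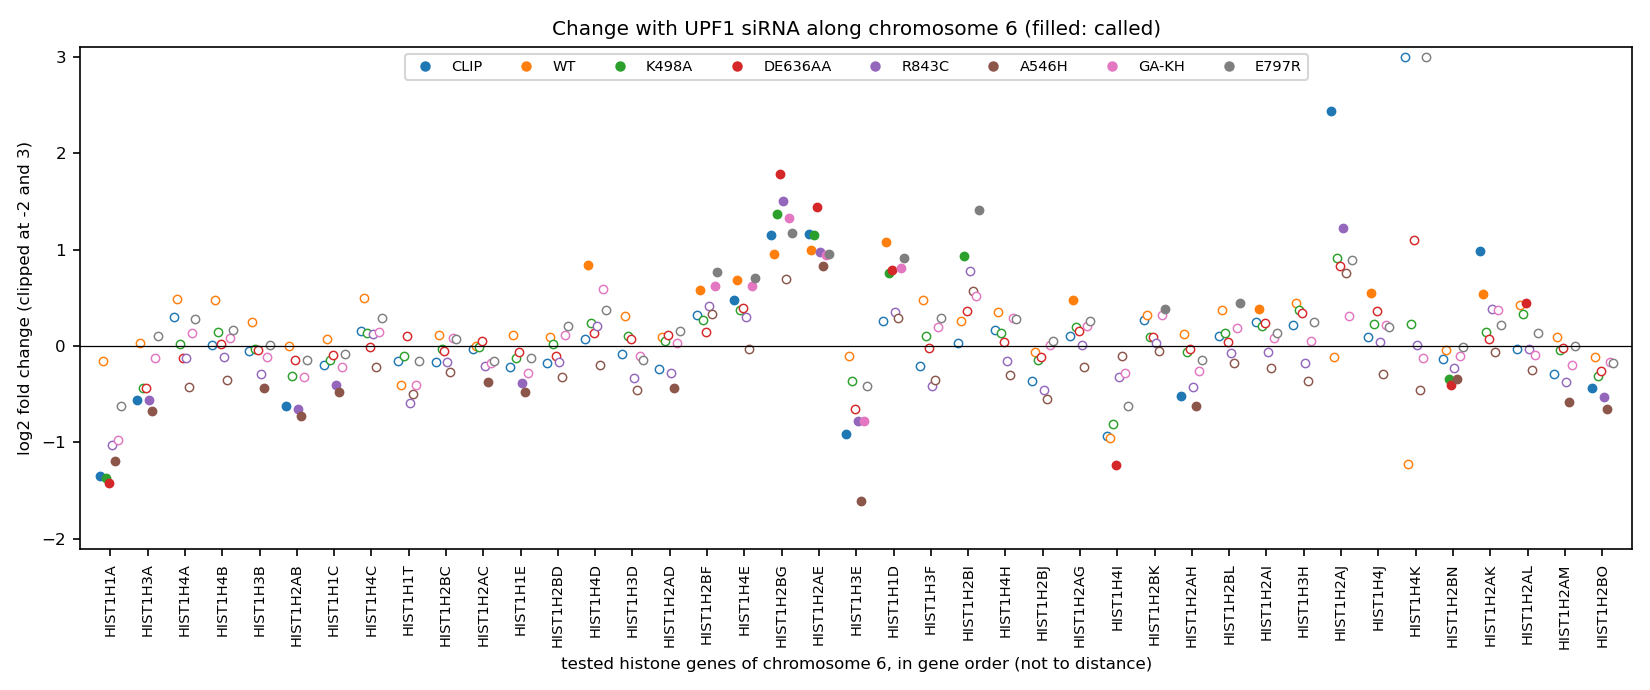
Log2 fold change of siUPF1 against siNT (vertical axis, limited to -2 and 3) of the tested histone genes of chromosome 6 in gene order (horizontal axis, not to distance), with 1 colour per line and filled points for calls. HIST1H2BF, HIST1H4E, HIST1H2BG, HIST1H2AE and HIST1H1D hold filled points above 0 in 3 to 8 lines, and HIST1H3E among them holds filled points below 0 in 4.

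HIST1H3E was called lower in 4 lines, at about 1 CPM. In A546H it was 1.67, 1.66 and 1.34 CPM with siNT and 0.314, 0.789 and 0.474 CPM with siUPF1, a log2 fold change of -1.60 (SE 0.31, edgeR adjusted p = 9.87e-05). In CLIP it was 1.48, 0.990 and 1.53 CPM with siNT and 0.667, 0.811 and 0.640 CPM with siUPF1, a change of -0.91 (SE 0.30, edgeR adjusted p = 0.0116). In both lines every siUPF1 library lay below every siNT library. The changes in R843C and GA-KH were -0.78 (SE 0.30, edgeR adjusted p = 0.0449) and -0.78 (SE 0.29, edgeR adjusted p = 0.0424), and at this depth they are near the limit: leaving out any 1 of the 6 GA-KH libraries, or any R843C library except siUPF1 replicate 3, ended the call, with changes from -0.86 to -0.68 and from -0.85 to -0.61. Without CLIP siNT replicate 3 the change in CLIP was -0.80 with edgeR adjusted p = 0.0533.

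HIST1H2AB, HIST1H2BO and HIST1H3A, an H2A, an H2B and an H3 gene of the same chromosome, were called lower in CLIP, R843C and A546H. In A546H HIST1H2AB was 58.6, 36.7 and 49.5 CPM with siNT and 31.8, 27.5 and 28.5 CPM with siUPF1, a log2 fold change of -0.72 (SE 0.18, edgeR adjusted p = 0.00166). HIST1H2BO there was 49.2, 36.2 and 42.2 CPM with siNT and 28.5, 27.2 and 25.8 CPM with siUPF1, a change of -0.65 (SE 0.15, edgeR adjusted p = 0.00105). The siUPF1 libraries of both genes lay below all siNT libraries. In R843C the changes were -0.66, -0.53 and -0.56 for HIST1H2AB, HIST1H2BO and HIST1H3A, and in CLIP -0.62, -0.44 and -0.56. In WT they were -0.0036, -0.11 and 0.03 and none was called. In CLIP HIST1H2BO gave -0.37 with edgeR adjusted p = 0.0761 without siNT replicate 1, -0.40 with edgeR adjusted p = 0.0526 without siUPF1 replicate 1 and -0.41 with edgeR adjusted p = 0.0531 without siUPF1 replicate 2. HIST1H3A gave -0.44 with edgeR adjusted p = 0.0745 without CLIP siNT replicate 1, -0.49 with edgeR adjusted p = 0.0514 without CLIP siUPF1 replicate 2 and -0.47 with edgeR adjusted p = 0.0825 without R843C siNT replicate 1.

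The 2 most abundant members, the linker histone genes HIST1H1C and HIST1H1E, fell in R843C and A546H. In R843C HIST1H1C was 797.4, 796 and 763 CPM with siNT and 571, 595 and 617 CPM with siUPF1, a log2 fold change of -0.40 (SE 0.12, edgeR adjusted p = 0.00907). HIST1H1E was 1048, 1024 and 1019.5 CPM with siNT and 782, 772 and 809.6 CPM with siUPF1 there, a change of -0.39 (SE 0.13, edgeR adjusted p = 0.0177). Neither gene's groups overlapped. In A546H the changes were -0.48 (SE 0.12, edgeR adjusted p = 0.00217) for HIST1H1C and -0.48 (SE 0.13, edgeR adjusted p = 0.00369) for HIST1H1E. In CLIP they were -0.20 and -0.22 and were not called. The call of HIST1H1E in R843C was lost without siNT replicate 1 (-0.37 with edgeR adjusted p = 0.0509) and without siUPF1 replicate 2 (-0.39 with edgeR adjusted p = 0.0522).

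Other members called lower in A546H by the size of the change were HIST2H3A (-0.80, with overlapping groups), HIST1H2AH (-0.62), HIST1H2AM (-0.58), HIST2H2AA3 (-0.47), HIST2H2AA4 (-0.47), HIST1H2AD (-0.44), HIST2H2AC (-0.37) and HIST1H3B (-0.43), the most abundant H3 gene per length, which was 298, 222 and 272 CPM with siNT and 193, 202 and 191 CPM with siUPF1. HIST1H1A was called lower in CLIP, K498A, DE636AA and A546H (changes of -1.35, -1.37, -1.42 and -1.19), but its mean over all libraries was 0.292 CPM, under the 1 CPM set for naming, and it is given here after its values were seen. It was called in 3 lines by DESeq2, in 1 in a fit to the compared libraries alone and in 0 with no filter on low counts. HIST1H2BN was called lower in K498A, DE636AA and A546H (-0.34, -0.40 and -0.35), and the first of these calls was lost without siNT replicate 1 (-0.25 with edgeR adjusted p = 0.0698). HIST1H2BN overlaps HIST1H2AK on the opposite strand, which was called higher in CLIP (9.55, 7.54 and 10.46 CPM with siNT and 14.1, 24.3 and 16.1 CPM with siUPF1, a change of 0.98) and WT (0.54). The calls of HIST1H2AM, HIST1H2AH and HIST2H2AA3 in A546H were lost without siNT replicate 1 (-0.49 with edgeR adjusted p = 0.0504, -0.45 with edgeR adjusted p = 0.117, and -0.42 with edgeR adjusted p = 0.143). That of HIST1H2AH was also lost without siUPF1 replicate 3 (-0.57 with edgeR adjusted p = 0.0569), and that of HIST2H2AA3 without siNT replicate 3 (-0.41 with edgeR adjusted p = 0.142), siUPF1 replicate 2 (-0.40 with edgeR adjusted p = 0.169) or siUPF1 replicate 3 (-0.48 with edgeR adjusted p = 0.0955).

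The remaining calls above the 1 CPM minimum were scattered over lines. HIST1H4D was higher in WT (10.3, 7.52 and 6.15 CPM with siNT and 18.7, 11.1 and 13.0 CPM with siUPF1, a log2 fold change of 0.84 (SE 0.27, edgeR adjusted p = 0.0177)), and that call was lost without siNT replicate 2 (0.80 with edgeR adjusted p = 0.0622), siNT replicate 3 (0.69 with edgeR adjusted p = 0.107) or siUPF1 replicate 1 (0.58 with edgeR adjusted p = 0.168). HIST2H2BC, an H2B pseudogene, was lower in DE636AA (3.51, 7.16 and 5.56 CPM with siNT and 2.15, 2.73 and 1.63 CPM with siUPF1, a change of -1.30 (SE 0.21, edgeR adjusted p = 4.14e-06)). In CLIP HIST1H2AH changed by -0.52 and HIST2H2AA3 by -0.50. Each of these CLIP calls was lost without siNT replicate 1, siNT replicate 3 or siUPF1 replicate 1, that of HIST1H2AH also without siUPF1 replicate 3 and that of HIST2H2AA3 without siUPF1 replicate 2, with changes of -0.53 to -0.40 and -0.47 to -0.41. Calls whose groups overlapped were HIST1H2AG (0.47), HIST1H2AI (0.39) and HIST1H4J (0.55) in WT, HIST1H2AL (0.44) in DE636AA, and HIST1H2BL (0.45) and HIST3H2BB (0.48) in E797R. In a fit to the compared libraries alone HIST1H2AI and HIST1H4J were called in 0 lines.

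Among near-identical copies the values scattered widely between libraries. HIST2H4B, whose copy is HIST2H4A and which overlaps HIST2H3A on the opposite strand, was 65.9, 18.8 and 25.3 CPM with siNT and 12.7, 13.5 and 14.2 CPM with siUPF1 in A546H, a log2 fold change of -1.45 (SE 0.50, edgeR adjusted p = 0.0226), while HIST2H4A was 105, 118 and 122 CPM with siNT and 107, 112 and 97.3 CPM with siUPF1 there and was not called. The call of HIST2H4B was lost without siNT replicate 1 (-0.73 with edgeR adjusted p = 0.325), siUPF1 replicate 1 (-1.42 with edgeR adjusted p = 0.0670), siUPF1 replicate 2 (-1.47 with edgeR adjusted p = 0.0570) or siUPF1 replicate 3 (-1.51 with edgeR adjusted p = 0.0508). Among the 7 members with a reported polyadenylated mRNA (HIST1H1C, HIST1H2AC, HIST1H2BC, HIST1H2BD, HIST1H2BK, HIST2H2BE and HIST1H4H), HIST1H1C was called lower in R843C, HIST1H1C and HIST1H2AC (-0.37) in A546H, and HIST1H2BK higher in E797R. HIST1H2BK was 143, 153 and 170.3 CPM with siNT and 212, 225 and 172 CPM with siUPF1 there, a change of 0.39 (SE 0.13, edgeR adjusted p = 0.0201). That call was lost without siNT replicate 1 (0.33 with edgeR adjusted p = 0.0989), siNT replicate 2 (0.36 with edgeR adjusted p = 0.0688), siUPF1 replicate 1 (0.34 with edgeR adjusted p = 0.0875) or siUPF1 replicate 2 (0.31 with edgeR adjusted p = 0.116). HIST1H2BK was called higher in 3 lines with no filter and in 2 in a fit to the compared libraries alone. The medians of the 7 were -0.09 in CLIP, 0.10 in WT and -0.30 in A546H, beside -0.03, 0.12 and -0.32 over all 59 members.

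Whether a line's response differed from that of WT was tested as a difference of differences, and these comparisons share the WT libraries. In CLIP 2 of 59 members were called, against 11.9% of all genes, and in the other 6 lines none was. HIST1H1D responded less in CLIP than in WT, with a log2 difference of -0.82 (SE 0.24, edgeR adjusted p = 0.0179). It went from 44.9 ± 3.95 to 53.6 ± 9.57 CPM (SD, n = 3) in CLIP and from 35.5 ± 3.13 to 74.9 ± 16.7 CPM in WT. The difference for HIST1H2AJ was 2.55 (SE 0.71, edgeR adjusted p = 0.0125). It was 0.180, 0.165 and 0.0325 CPM with siNT and 0.597, 0.974 and 0.560 CPM with siUPF1 in CLIP and 0.343, 0.339 and 0.136 CPM with siNT and 0.239, 0.247 and 0.280 CPM with siUPF1 in WT, levels under the minimum for naming, and it is given because it was 1 of 2. Both calls rest on single libraries, and the count lower became 2 without CLIP siUPF1 replicate 1 or WT siNT replicate 1 and the count higher 2 without CLIP siUPF1 replicate 3. That of HIST1H1D was lost without CLIP siNT replicate 1 (-0.75 with edgeR adjusted p = 0.0578), WT siNT replicate 2 (-0.77 with edgeR adjusted p = 0.0528) or WT siUPF1 replicate 3 (-0.60 with edgeR adjusted p = 0.0822), and that of HIST1H2AJ without CLIP siNT replicate 3 (2.12 with edgeR adjusted p = 0.0521). DESeq2 called 1 member lower and 0 higher for this difference, so HIST1H2AJ was not called by it. In a fit to the CLIP and WT libraries alone the values were -0.81 with edgeR adjusted p = 0.0993 and 2.56 with edgeR adjusted p = 0.0759.

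No member was called in the other lines, where the shares of all genes called by edgeR were 3.26% for K498A, 4.5% for DE636AA, 1.94% for R843C, 0.298% for A546H and 0% for both GA-KH and E797R. At an unadjusted p under 0.05 the members lower than in WT numbered 31 in A546H, 12 in R843C, 5 in DE636AA, 3 in K498A and 2 in GA-KH, 2 were higher in E797R, and DESeq2 called 1 lower in DE636AA and none elsewhere. The share of all genes at this unadjusted threshold was not counted, so these member counts have no background to be read against. The medians of the 59 differences were -0.40 in R843C, -0.54 in A546H, -0.21 in K498A, -0.21 in DE636AA, -0.15 in GA-KH and -0.07 in E797R. The lower histone mRNA in A546H and R843C was not called for any single gene as a difference from WT. Without a filter on low counts, 22 members in A546H and 10 in R843C were called lower than in WT, and the share of all genes was not counted there either.

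With siNT, where endogenous UPF1 was present, histone levels in the 7 lines with CLIP-UPF1 were compared with those in CLIP, whose siNT libraries these comparisons share. The comparison with DE636AA called 2 members lower (10 without DE636AA siNT replicate 1, which also gave 2 higher), against 1.34% of all genes. HIST1H2AL, which overlaps HIST1H2BN on the same strand, was 10.1, 5.52 and 5.46 CPM in DE636AA and 14.2, 11.9 and 12.9 CPM in CLIP, a log2 difference of -0.88 (SE 0.17, edgeR adjusted p = 0.0134). HIST1H2AH was 131, 72.7 and 72.6 and 171, 136 and 154 CPM, a difference of -0.74 (SE 0.20, edgeR adjusted p = 0.0482). The call of HIST1H2AL was lost without CLIP siNT replicate 1 (-0.82 with edgeR adjusted p = 0.0847), CLIP siNT replicate 3 (-0.88 with edgeR adjusted p = 0.0514), DE636AA siNT replicate 2 (-0.74 with edgeR adjusted p = 0.166) or DE636AA siNT replicate 3 (-0.72 with edgeR adjusted p = 0.145), and that of HIST1H2AH without any 1 library except DE636AA siNT replicate 1, with values from -0.82 to -0.59. No member was called by edgeR or DESeq2 in WT, K498A, R843C, A546H, GA-KH or E797R, where 0.0314%, 0.0366%, 0.0889%, 0.125%, 0.0627% and 0.0261% of all genes were. At an unadjusted p under 0.05 these lines had 5, 4, 3, 0, 7 and 1 members, respectively, and the share of all genes at that threshold was not counted.

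Of the genes that make, bind and degrade histone mRNA, SLBP, the stem-loop binding protein, fell in all 8 lines. Its levels in CLIP were 184, 184 and 198 CPM with siNT and 103, 109.6 and 125 CPM with siUPF1, a log2 fold change of -0.75 (SE 0.08, edgeR adjusted p = 5.12e-10). In WT, where the change was smallest, it was 185, 182 and 205 CPM with siNT and 127, 134 and 156 CPM with siUPF1, a change of -0.46 (SE 0.08, edgeR adjusted p = 1.83e-05). In A546H it was 201, 176 and 192 CPM with siNT and 113, 109 and 122 CPM with siUPF1, a change of -0.72 (SE 0.08, edgeR adjusted p = 3.09e-09). No siUPF1 library of these lines reached the level of its siNT libraries. In R843C the change was -0.73, and in K498A, DE636AA, GA-KH and E797R, where the histone sums overlapped, it was -0.74, -0.73, -0.61 and -0.61. ERI1, the exonuclease that trims the histone stem-loop, was 40.3, 40.8 and 38.6 CPM with siNT and 51.4, 31.6 and 50.9 CPM with siUPF1 in CLIP and was called in no line (changes of -0.16 to 0.26, edgeR adjusted p = 0.0804 at the lowest, and an unadjusted p under 0.05 in A546H). LSM11 of the U7 snRNP, which cuts histone pre-mRNA, changed by 0.13 in CLIP and -0.17 in A546H, and NPAT, which activates histone transcription, by -0.39 and 0.07, none of them called. CASP8AP2, which NPAT's nuclear bodies contain, was called lower in CLIP (-0.43 (SE 0.15, edgeR adjusted p = 0.0207)), where it was 195, 200.3 and 191 CPM with siNT and 189.8, 93.9 and 153 CPM with siUPF1. That call was lost without CLIP siUPF1 replicate 2, the library that stands apart (-0.20 with edgeR adjusted p = 0.243), without CLIP siNT replicate 2 (-0.41 with edgeR adjusted p = 0.0530) or in a fit to the CLIP libraries alone (-0.44 with edgeR adjusted p = 0.196). It was called in none of the other 7 lines, and a difference between lines was not tested.

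Of the 41 genes of histone mRNA synthesis, processing and decay, 8 were called higher and 11 lower in CLIP (25.1% and 22.3% of all genes), 3 and 7 in WT (14% and 13.3%), 9 and 9 in K498A (16.2% and 16.5%) and 7 and 8 in DE636AA (16.7% and 17.6%). The counts were 8 and 6 in R843C (17.7% and 14.8% of all genes), 8 and 8 in A546H (17.2% and 15%), 3 and 5 in GA-KH (14.5% and 13.8%) and 3 and 6 in E797R (16% and 13.5%). CSTF2 and CSTF2T, subunits of a cleavage factor used for histone pre-mRNA, were lower in all 8 lines (log2 fold changes of -0.56 to -0.30 and -0.30 to -0.18), and the decapping factor DCP1A was higher in all 8 (0.27 to 0.59). Other large changes were called in only some lines. SMG1 was higher in 5 (0.013 to 1.52 over the 8 lines), UPF2 in 5 (0.010 to 0.73) and LSM7 in 6 (0.23 to 0.74). CPSF3 was lower in 5 (-0.74 to -0.31) and LSM4 in 2 (-0.67 to -0.03). Of 12 replication-independent histone genes, 5 were higher and 2 lower in CLIP, 3 and 0 in WT, 1 and 4 in each of K498A and DE636AA, 2 and 2 in R843C, 1 and 2 in A546H, 2 and 0 in GA-KH and 4 and 0 in E797R, to be read against the same shares of all genes. H1F0, a linker histone whose mRNA is polyadenylated, was higher in all 8 lines. In CLIP it was 28.98, 30.9 and 26.2 CPM with siNT and 70.6, 81.8 and 70.2 CPM with siUPF1, a change of 1.37 (SE 0.08, edgeR adjusted p = 4.59e-16), and the smallest change was 0.98 in R843C. The H1F0 groups did not overlap in any line. H2AFZ was lower in 4 lines (-0.71 to -0.01 over the 8), and H3F3B was higher in 5 (0.10 to 0.30).

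Histone mRNA is made in S phase, so genes of DNA replication were read beside it. Of 33 such genes, 8 were called higher and 14 lower in CLIP (25.1% and 22.3% of all genes), 4 and 5 in WT (14% and 13.3%), 3 and 9 in R843C (17.7% and 14.8%) and 3 and 11 in A546H (17.2% and 15%), with medians of -0.03, -0.07, -0.11 and -0.11. GA-KH had 2 and 10 (14.5% and 13.8% of all genes), K498A 4 and 9 (16.2% and 16.5%), DE636AA 5 and 9 (16.7% and 17.6%) and E797R 4 and 6 (16% and 13.5%). Whether these counts differ from the shares of all genes was not tested. CHAF1B, a subunit of the histone chaperone CAF-1, was lower in all 8 lines, in CLIP at 107, 107 and 111 CPM with siNT and 70.3, 72.5 and 76.7 CPM with siUPF1 (-0.57 (SE 0.06, edgeR adjusted p = 3.14e-10)). RRM2 and TYMS, which make DNA precursors, were lower (-0.60 to -0.43 and -1.04 to -0.41) and the replication factors CDC45 and GINS3 higher (0.28 to 0.46 and 0.30 to 0.62) in all 8. PRIM1 and RRM1 were called lower in 5 lines each (-0.92 to -0.33 and -0.63 to -0.14 over the 8), and MCM2 was called higher in 3 (0.16 to 0.62). The part of S-phase cell number in the histone values was not tested.

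**Figure D5:**
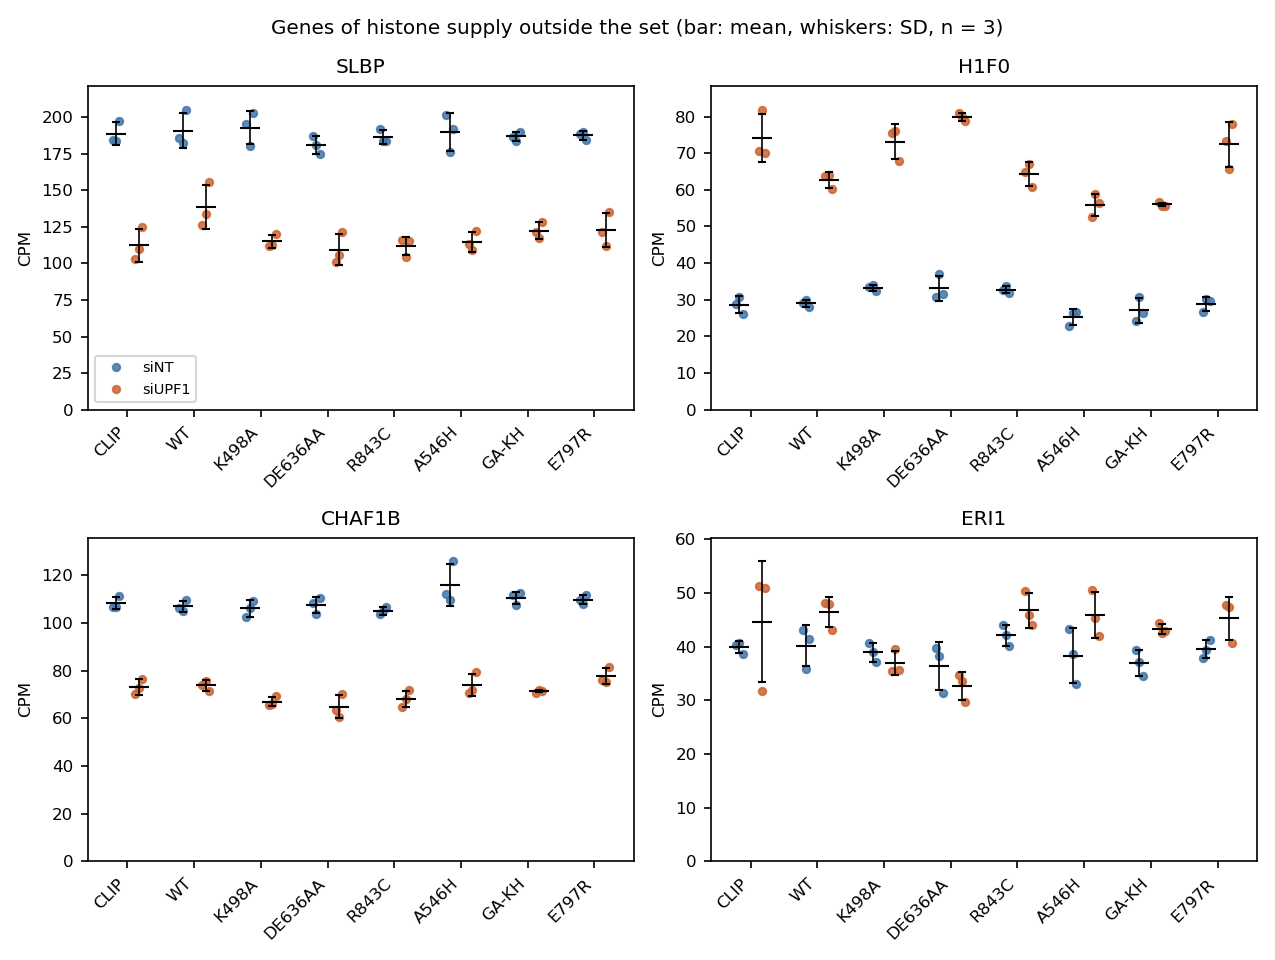
CPM of SLBP, H1F0, CHAF1B and ERI1 (vertical axes, each on its own scale) in the 8 lines with siNT and siUPF1; each point is a library, the bar is the mean and the whiskers are the SD (n = 3). In all 8 lines the siUPF1 libraries lie below the siNT libraries for SLBP and CHAF1B and above them for H1F0, and ERI1 was called in none.

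Across the 16 group means, the genes whose log2 CPM followed the summed histone CPM most closely among 11879 genes were POLR3K (Pearson r = 0.799), TRIM28 (0.797), CCDC71 (0.777), FAU (0.749) and UBE2C (0.747). The points share lines and library scaling, and the values are a description only.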

How the data were processed

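Total RNA (500 ng, depleted of ribosomal RNA) of 48 libraries was sequenced. The deposited values are expected counts per gene, made by the authors with cutadapt, STAR and RSEM on hg19, per the submitters' processing notes, which also name DESeq2. Versions, annotation release and strand setting are not given in the sources used here. Expected counts were rounded and fitted with edgeR 4.0.16 in R 4.3.3: genes kept by filterByExpr over 16 groups, TMM scaling, 1 term per group and the quasi-likelihood test, with Benjamini-Hochberg adjustment over 19129 genes, also for every adjusted p printed in brackets. In all, 22 comparisons were made. CPM are TMM-scaled. A prior count of 2 was used for log2 CPM only, and the fitted log2 fold changes use the default of edgeR. Class sums have no test. Alternatives were other size factors, DESeq2 1.42.0, no filter, a replicate block, a fit to the compared libraries and each library left out. The fit was tested on simulated data. No pair of replicate libraries agreed within sampling noise (chi-square per degree of freedom 3.90 to 139 over 48 pairs).

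Members named were the 2 most abundant per length in each class, called members of at least 1 CPM whose groups did not overlap (up to 10 each way per response, 5 in other comparisons) and those with reported polyadenylated mRNA, and of the other lists SLBP, ERI1, LSM11, NPAT, CASP8AP2 and some of the largest calls. CSTF2T was not among the largest calls and was named because it was called in all 8 lines. Members and lists were chosen with earlier results of these data known.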

Additional observations from a re-analysis of the deposited data

Results flagged for a closer look

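The response of HIST1H1D to siUPF1 in CLIP differed from that in WT by -0.82 (SE 0.24, edgeR adjusted p = 0.0179) on the log2 scale in a test of the difference itself. The response of HIST1H2AJ differed by 2.55 (SE 0.71, edgeR adjusted p = 0.0125) in the same test, at levels under 1 CPM, and was not called by DESeq2.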

How the results depend on the processing

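No called value changed direction, and of the single-gene values 1613 kept their call and 180 lost it under an alternative. Sums per class moved by less than the spread between libraries, but some sums whose groups overlapped changed sign, such as H1 in WT (a log2 ratio of 0.12, and -0.09 to 0.25 with 1 library left out). Same-numbered libraries correlated above 0.1 in 15 of 24 pairs (-0.00731 to 0.283), and 21 of 24 libraries correlated best with their own number, a hint from the data only. With the replicate block, members called higher became 17 in WT and 4 in A546H; lower became 4 in K498A, 12 in R843C and 4 in GA-KH; and lower differences became 2 in CLIP, 2 in DE636AA and 3 in A546H, with 5 lower for siNT DE636AA. Under the block HIST1H2BG was called higher in 8 lines rather than 7, HIST1H2BF in 6 rather than 3 and HIST1H2BK in 4 rather than 1. Without a filter, higher became 21 in WT and 8 in DE636AA, lower 29 in A546H, 14 in R843C, 7 in K498A, 5 in GA-KH, 2 in E797R and 1 in WT. Differences from WT became 3 higher and 6 lower in CLIP, 22 lower in A546H, 10 in R843C, 2 each in K498A and DE636AA and 1 in GA-KH, with 1 each way in E797R. Against CLIP, siNT gave 2 each way in WT and K498A, 10 lower in DE636AA, and 1 each way in R843C, GA-KH and E797R. Fitted to the compared libraries only, lower became 3 in CLIP, 1 in WT, 4 in K498A, 20 in R843C and 3 in GA-KH, higher 7 in R843C and 4 in A546H, differences 0 each way in CLIP, and siNT 1 higher in WT and 0 lower in DE636AA. With DESeq2 size factors, lower became 3 in GA-KH and 1 for siNT DE636AA. The DESeq2 test gave 2 lower in GA-KH, 0 higher differences in CLIP and 1 lower in DE636AA. Leaving out 1 library gave 3 to 8 lower in CLIP, 3 to 17 higher in WT, 3 to 5 higher and 0 to 3 lower in K498A, 3 to 8 higher in DE636AA, 1 to 2 higher and 8 to 20 lower in A546H, 0 to 2 lower in GA-KH and 6 to 10 higher in E797R, differences of 0 to 2 each way in CLIP and 0 to 1 lower in DE636AA, and 0 to 2 higher and 0 to 10 lower for siNT DE636AA. The causes were not tested. With no filter 7 members, and with the fit to compared libraries 1, were called higher in 1 line and lower in another. Members near 1 CPM are limited by depth.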
